A study of Mus musculus with 8 samples.

Results

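The 10 genes described here take up, store, sense, recycle and export iron, or break down heme. They are the ferritin chain genes Fth1 and Ftl1, Ncoa4, Hmox1, Slc11a1, Slc11a2, Tfrc, Slc40a1, Hfe and Ireb2. They were taken by gene symbol, with earlier results of these data known, and each symbol stood on a single row among the 46983 genes of the authors' deposited table. All 10 had reads and passed the filter on low values, as did 22546 genes in all.

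Total RNA of microglia, which are macrophages that live in the brain, was sequenced in 8 libraries, 4 named WT and 4 named Qk-KO, each numbered 1 to 4. The cells came from the corpus callosum, a white-matter tract, of FvB/C57BL6 hybrid mice. Every mouse carried Cx3cr1-CreER, a tamoxifen-inducible Cre recombinase driven from a gene that microglia share with other macrophages and with monocytes. WT mice were QKLoxP/+, with 1 Qk allele flanked by loxP sites, and Qk-KO mice were QKLoxP/LoxP. Tamoxifen was given at 8 weeks of age, and all mice then ate 0.2% cuprizone, a copper chelator that kills oligodendrocytes, for 6 weeks. Qk encodes quaking, an RNA-binding protein that acts on splicing and RNA stability, and the design compares microglia with and without it during demyelination. Whether the libraries came from separate animals is not stated in the labels. The p-values therefore cover the variation among these libraries and no more, and it may be technical.

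The labels disagree about 4 libraries. Their genotype field calls named WT 2 and 3 Qk-KO and named Qk-KO 1 and 3 WT. Libraries are therefore called by their names throughout, both groupings were tested, and no difference is assigned to a genotype. The authors' deposited fold changes followed the names: over 5227 precisely measured genes (standard error under 0.1), their correlation across genes with differences recomputed here was 0.9997 by name and 0.0458 by genotype field. Genes are not independent replicates, and these values only compare computations on the same libraries. Qk itself stood at 15.50, 15.38, 15.41 and 15.37 for named WT 1 to 4, against 15.59, 15.40, 15.69 and 15.29 for named Qk-KO 1 to 4, in regularized log2 values. The ranges overlapped, and the gene-level value does not separate the flanked exon from the rest of the gene, so it checks neither label.

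Estimated totals of reads assigned to genes were 59.7 M to 69.7 M among named WT libraries, against 43.9 M to 58.5 M among those named Qk-KO, so that depth moved with the names. Its part in the results was not tested. The scarcest of the 10 genes in any library still had an estimated 1068 reads (Tfrc), for which counting alone gives an SD of at most 0.0441 on the log2 scale. All 10 microglia markers had reads, and their summed level, in CPM-like units (signal scaled to a common depth, called CPM below), ran from 16721 to 18474 among named WT libraries, against 13633 to 15969 among those named Qk-KO. Of these markers, 8 of 10 had a lower mean in the named Qk-KO libraries, and Sall1, Csf1r and Cx3cr1 were called lower in the authors' deposited table. The libraries numbered 4 stood apart: their oligodendrocyte marker sums were 310 (named WT 4) and 264 (named Qk-KO 4) against 125 to 139 in the others, and their astrocyte sums were 543 and 503 against 85.5 to 383. Erythroid markers were lower on average in the named Qk-KO libraries for 7 of 7 genes, with sums of 120 to 285 beside 226 to 411. That direction was shared by 8 of 8 oligodendrocyte, 8 of 8 astrocyte, 8 of 8 neutrophil and 7 of 8 endothelial markers. Named WT 2 had a neutrophil sum of 333, against 9.93 to 69.8 elsewhere. Border-associated macrophage sums overlapped, at 112 to 191 among named WT and 125 to 184 among named Qk-KO libraries. No cell type list had a marker at 0 reads. The part of these other cells in the values below was not tested, and in bulk RNA fewer cells of a type and less RNA per cell cannot be told apart.

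**Figure D1:**
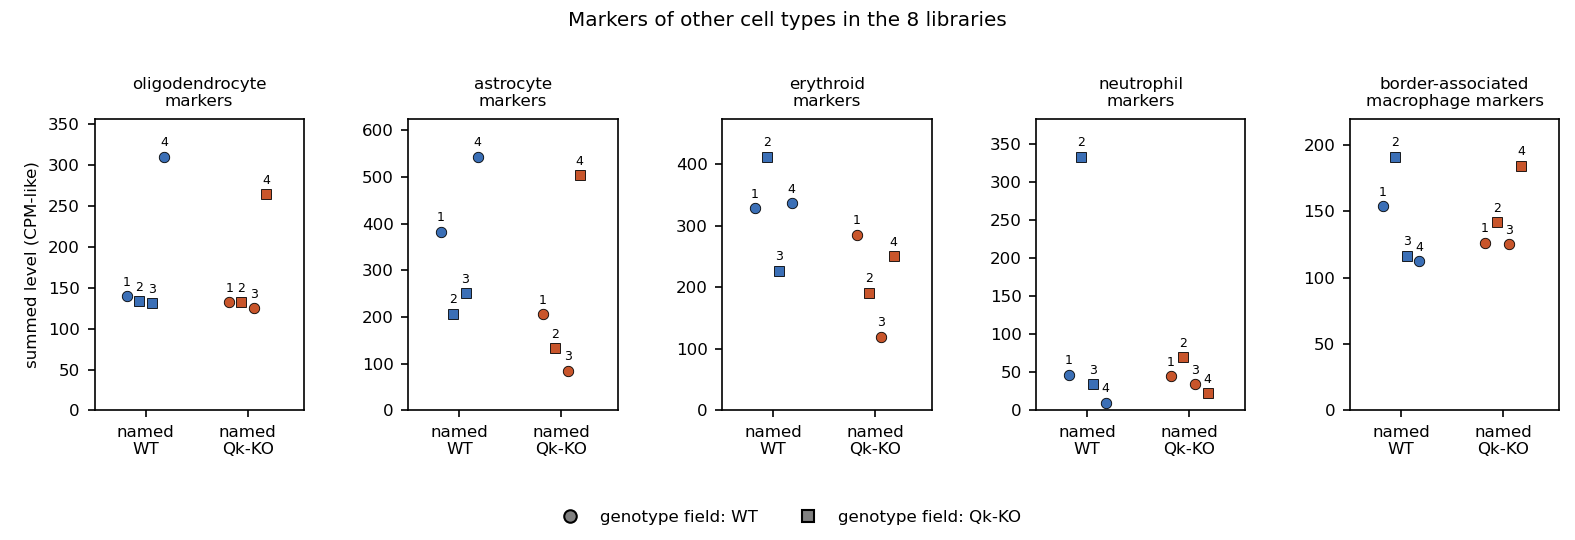
Summed level of marker genes of 5 other cell types (vertical axis, CPM-like units, starting at 0) in each library, by sample name; digits are library numbers and the marker shape gives the genotype field. The libraries numbered 4 have the highest oligodendrocyte sums (310 and 264), and named WT 2 has the highest neutrophil sum (333).

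Cells hold iron mainly in ferritin, a shell built of heavy chains, which oxidise iron for storage, and light chains, which help to lay it down as mineral. Iron regulatory proteins bind a hairpin, the iron-responsive element, when iron is scarce: in the leader of a transcript the bound hairpin blocks translation, and in the tail of the transferrin receptor transcript it protects the RNA from decay. Microglia and other macrophages that clear myelin also take in heme and iron, which they store, or export through ferroportin. Much of this control acts on translation and protein stability, which RNA levels do not show.

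The hairpins are shown because they divide the 10 genes into those with the element in the leader, those with it in the tail and those in which none was found. The search took a C, then 5 stem positions of which at least 4 had to pair, around the loop CAGTGN. It ran on the transcript strand of GENCODE M21 transcripts (build GRCm38). The pair next to the loop was required, G with T counted as a pair, and whether the C was unpaired was not checked. Each line has 30 bases, written 5′ to 3′, with the loop in capitals.
Fth1, 5′ UTR, chr19:9982731-9982760, plus strand: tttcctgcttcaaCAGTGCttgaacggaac
Ftl1, 5′ UTR, chr7:45459779-45459808, minus strand: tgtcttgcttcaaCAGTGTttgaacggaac
Slc40a1, 5′ UTR, chr1:45925465-45925494, minus strand: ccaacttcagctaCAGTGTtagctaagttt
Tfrc, 3′ UTR, chr16:32631218-32631247, plus strand: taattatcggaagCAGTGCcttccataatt
Tfrc, 3′ UTR, chr16:32631597-32631626, plus strand: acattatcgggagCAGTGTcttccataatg
Tfrc, 3′ UTR, chr16:32631662-32631691, plus strand: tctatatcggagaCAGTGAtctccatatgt
Tfrc, 3′ UTR, chr16:32631709-32631738, plus strand: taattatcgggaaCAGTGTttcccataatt
Slc11a2, 3′ UTR, chr15:100395153-100395182, minus strand: gagccatcagagcCAGTGTgtttctatggt
The leader matches lay 109 (Fth1), 147 (Ftl1) and 201 (Slc40a1) bases before the start codon, and all 5 stem positions paired. The Slc11a2 match paired at 4 of 5 positions and lay in the tail of transcript Slc11a2-205 only, 30 bases after the stop codon; the principal transcript Slc11a2-201 held none. In the principal transcript of each gene, the same search matched the 5′ UTR of 98 of 21901 genes (0.447%) and the 3′ UTR of 562 (2.57%). Other transcripts, such as Slc11a2-205, were not part of these counts. No UTR match was found in Hmox1, Slc11a1, Hfe, Ireb2 or Ncoa4, and a match within the Slc11a1 coding sequence is not a UTR match. A match is a description of letters, not a measured site.

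Levels of the 10 genes spanned a wide range, with ferritin far above the rest. Divided by the length of the principal transcript, the mean normalized signal over the 8 libraries was 183651 per kilobase for Ftl1 and 142381 for Fth1. Slc11a1 followed at 11463 per kilobase, Hmox1 at 4994, Slc11a2 at 1404, Ncoa4 at 1314, Hfe at 759, Slc40a1 at 689, Tfrc at 336 and Ireb2 at 318. Most neighbours in this order kept it in 8 of 8 libraries. Slc11a2 was above Ncoa4 in 5 of 8, Tfrc above Ireb2 in 5 of 8, and Hfe above Slc40a1 in 7 of 8, with gaps no larger than their SD between libraries. The signal without length correction placed Ftl1 and Fth1 at 3130 and 2329 CPM and the scarcest gene, Tfrc, at 28.9 CPM.

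Between the named groups, none of the 10 genes passed the test across all genes. By limma on the deposited log2 values, 0 of 10 had a Benjamini-Hochberg adjusted p under 0.05, against 1 of 22546 genes (0.00444%), and 1 of 10, Fth1, had an unadjusted p under 0.05, against 8.26% of all genes. In the authors' deposited table, 0 of 10 were called at an adjusted p under 0.05, against 1.22% of the 14150 genes with one, and 1 of 10, again Fth1, at 0.1, against 2.06%. No gene of the 10 had named groups whose libraries did not overlap, against 5.73% of all genes. Of the 10 differences, 4 were positive (named Qk-KO minus named WT), with a median of -0.04 beside -0.004 for all genes, and their median size was 0.0846 beside 0.108. Centring each library on its median adds 0.08 to every difference. It moved the median of all genes to 0.07 and that of the 10 to 0.04, with 7 of the 10 positive.

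Fth1, the ferritin heavy chain with the iron-oxidising centre (ENSMUSG00000024661.6, chr19:9980598-9985098, plus strand), had the largest difference of the 10. In regularized log2 values, named WT 1 to 4 had 16.87, 16.85, 16.94 and 16.60, and named Qk-KO 1 to 4 had 17.26, 17.20, 17.32 and 16.91. Named Qk-KO 1, 2 and 3 lay above every named WT library, while named Qk-KO 4 lay within the named WT range. The means were 16.82 ± 0.15 and 17.17 ± 0.18 (SD, n = 4 each), a difference of 0.36 (SE 0.10, 95% interval 0.13 to 0.59), or 1.28-fold. The limma adjusted p was 0.443 (unadjusted 0.00600), and the authors' deposited table gives 0.36 (SE 0.11) with an adjusted p of 0.0768. Without both libraries numbered 4, the difference was 0.37 with a limma adjusted p of 0.0980.

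Ftl1, the ferritin light chain (ENSMUSG00000050708.14, chr7:45457944-45459884, minus strand), differed less. It stood at 17.39, 17.47, 17.44 and 17.30 across named WT 1 to 4, and at 17.55, 17.53, 17.48 and 17.34 across named Qk-KO 1 to 4. Named Qk-KO 1, 2 and 3 were the highest of the 8, and both libraries numbered 4 were the lowest, so the groups overlapped. The difference was 0.08 (SE 0.06, 95% interval -0.06 to 0.22), with a limma adjusted p of 0.752. Without named WT 4 it was 0.043, without named Qk-KO 1 0.051 and without named Qk-KO 4 0.12. Across the 8 libraries Ftl1 spanned 0.25 on the log2 scale and Fth1 0.72. Among genes within 1.5-fold of the same mean signal, the median span was 0.31 over 24 genes for Ftl1 and 0.35 over 37 genes for Fth1.

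The ratio of light to heavy ferritin chain transcript separated the named groups, but did not pass once adjusted for the 2 ratios tested. The log2 ratio of Ftl1 to Fth1 was 0.53, 0.62, 0.49 and 0.70 for named WT 1 to 4, against 0.29, 0.33, 0.16 and 0.43 for named Qk-KO 1 to 4. Every named Qk-KO library lay below every named WT library. Among single genes, 5.73% had named groups that did not overlap, and the share among ratios of 2 genes was not computed. The mean was 0.58 ± 0.09 for the named WT and 0.30 ± 0.11 for the named Qk-KO group (SD, n = 4 each), a light-to-heavy ratio of signal of 1.499 against 1.23 before division by length. The difference was -0.28, and the exact two-sided permutation test over 70 assignments of the libraries gave p = 0.0286, the smallest it can give. With Benjamini-Hochberg adjustment over the 2 ratios tested, the exact permutation p was 0.0571. With the libraries grouped by the genotype field, the difference was 0.05 (exact permutation p = 0.771) and the groups overlapped. Without both libraries numbered 4, the difference was -0.29, and the exact permutation p of 0.1 was the smallest that 6 libraries allow. Without named WT 2 or without named WT 4, the differences were -0.27 and -0.24, each with an exact permutation p of 0.0571. Each chain had at least an estimated 102338 reads in every library, and depth moved with the names; its part in the ratio was not tested.

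**Figure D2:**
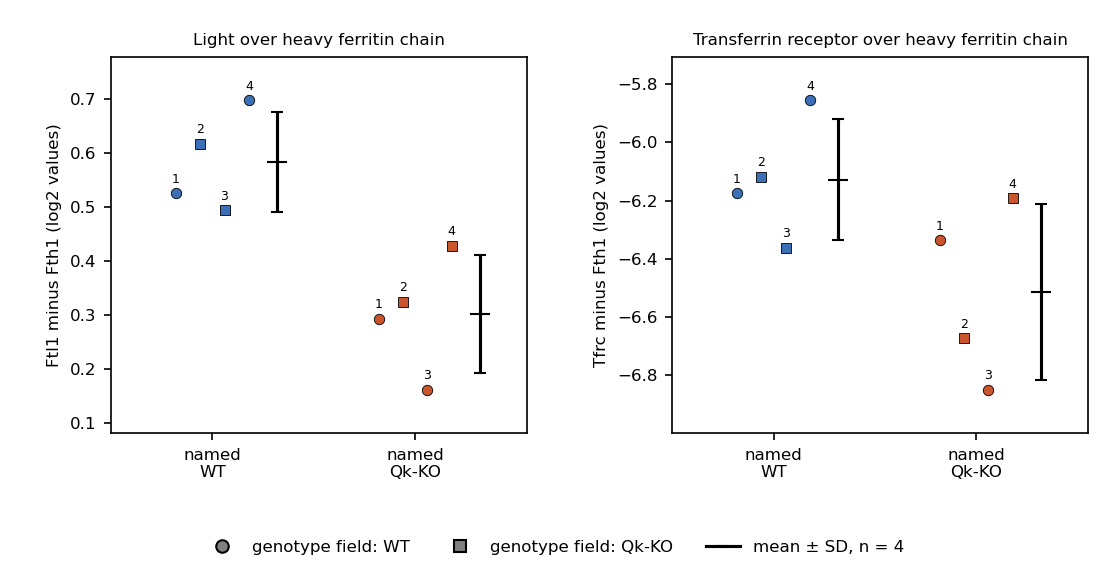
Log2 ratios of Ftl1 to Fth1 (left) and of Tfrc to Fth1 (right) in each library by sample name; digits are library numbers, the marker shape gives the genotype field, and bars are mean ± SD (n = 4). The Ftl1 to Fth1 ratio was 0.49 to 0.70 for the named WT and 0.16 to 0.43 for the named Qk-KO group, while the Tfrc to Fth1 ratios overlapped.

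Reads of the ferritin genes can be shared with processed copies, and no source used here gives how the authors' counting treated reads that match several places. Ftl1 had 7 copies in the annotation with at least 90% identity over at least 50% of its coding sequence, and their summed signal was 7.07% of its own. Fth1 had 1 such copy, at 0.0693% of its signal. With copies added to each chain, the ratio was 0.68 ± 0.11 for the named WT and 0.40 ± 0.10 for the named Qk-KO group (SD, n = 4 each), a difference of -0.27. The ranges were then 0.55 to 0.80 and 0.27 to 0.52 and did not overlap. Ftl1 also overlaps the annotated gene Gm10252 on the opposite strand and Gm22133 on the same strand, so its reads cannot be assigned with certainty.

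Ncoa4, the receptor that carries ferritin to the lysosome so that its iron is released (ENSMUSG00000056234.14, chr14:32159865-32179855, plus strand), was among the steadiest of the 10. Its level was 12.16, 12.17, 12.13 and 12.04 for named WT 1 to 4, against 12.09, 12.15, 11.88 and 12.15 for named Qk-KO 1 to 4. Named Qk-KO 3 was the lowest library, and the rest lay within 0.13 of each other. The difference was -0.06 (95% interval -0.22 to 0.10), with a limma adjusted p of 0.840. A copy with 99.9% identity, Gm6768, had a signal of 38.4% of that of Ncoa4, so the level of Ncoa4 is uncertain by that share.

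Hmox1, heme oxygenase 1, opens the heme ring and frees its iron (ENSMUSG00000005413.7, chr8:75093621-75100589, plus strand). It varied most of the 10 between libraries, and its named groups overlapped. Named WT 1 to 4 had 12.87, 13.15, 13.17 and 12.52, and named Qk-KO 1 to 4 had 12.94, 13.23, 13.01 and 12.34. The libraries numbered 4 were the lowest of both groups, and the other 6 lay between 12.87 and 13.23. The span of 0.89, or 1.85-fold, compares with a median span of 0.32 over 1139 genes of like signal and lay at their 92.1 percentile. The difference was -0.05 (95% interval -0.52 to 0.43), with a limma adjusted p of 0.964. Without both libraries numbered 4 it was -0.002. Oligodendrocyte and astrocyte marker sums were highest in those 2 libraries, and their part in the Hmox1 values was not tested.

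Slc11a1, or Nramp1, pumps iron and other divalent metals out of the phagosomes of macrophages (ENSMUSG00000026177.11, chr1:74375195-74386062, plus strand). It stood at 14.71, 14.76, 14.75 and 14.72 across named WT 1 to 4, and at 14.81, 14.74, 14.60 and 14.46 across named Qk-KO 1 to 4. The named WT libraries were within 0.05 of each other, and the named Qk-KO libraries lay on both sides of them. The difference was -0.08 (95% interval -0.25 to 0.09), with a limma adjusted p of 0.785. It was -0.015 without named Qk-KO 4 and -0.13 without named Qk-KO 1.

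Slc11a2, or DMT1, moves ferrous iron across the plasma membrane and out of endosomes (ENSMUSG00000023030.16, chr15:100387898-100425072, minus strand). Its level was 11.996, 12.08, 12.07 and 11.75 for named WT 1 to 4, against 12.45, 12.02, 12.20 and 11.72 for named Qk-KO 1 to 4. As for Hmox1 and both ferritin chains, the libraries numbered 4 were the lowest of each group. The difference was 0.12 (95% interval -0.21 to 0.45), with a limma adjusted p of 0.844. It was 0.0024 without named Qk-KO 1, 0.044 without named WT 4 and 0.24 without named Qk-KO 4. The annotated gene Gm5475 overlaps it on the opposite strand, and the deposited table does not separate transcripts with and without the tail hairpin.

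Tfrc, the transferrin receptor that brings transferrin-bound iron into the cell (ENSMUSG00000022797.15, chr16:32608920-32632794, plus strand), had the smallest difference. Named WT 1 to 4 had 10.69, 10.73, 10.58 and 10.74, and named Qk-KO 1 to 4 had 10.92, 10.53, 10.47 and 10.72. Named Qk-KO 1 was the highest and named Qk-KO 3 the lowest of the 8. The difference was -0.03 (95% interval -0.25 to 0.19), with a limma adjusted p of 0.955.

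Tfrc and Fth1 carry the hairpin at opposite ends of the transcript, so their ratio was the other one tested. The log2 ratio of Tfrc to Fth1 was -6.18, -6.12, -6.36 and -5.86 for named WT 1 to 4, against -6.34, -6.67, -6.85 and -6.19 for named Qk-KO 1 to 4. Named Qk-KO 2 and 3 lay below every named WT library, and the groups overlapped. The means were -6.13 ± 0.21 and -6.51 ± 0.30 (SD, n = 4 each), and the exact two-sided permutation test gave p = 0.114, unchanged by the adjustment over both ratios. By the genotype field the difference was -0.03 (exact permutation p = 0.886).

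Slc40a1, ferroportin, is the only known cellular iron exporter of mammals (ENSMUSG00000025993.10, chr1:45908068-45926523, minus strand). It stood at 11.01, 11.13, 11.30 and 11.37 across named WT 1 to 4, and at 11.05, 11.07, 10.73 and 11.60 across named Qk-KO 1 to 4. The libraries numbered 4 were the highest of both groups, the reverse of Hmox1, and named Qk-KO 3 was the lowest. The span of 0.88, at the 93.2 percentile of 2511 genes of like signal, was close to that of Hmox1. The difference was -0.09 (95% interval -0.47 to 0.29), with a limma adjusted p of 0.906, and without both libraries numbered 4 it was -0.20 with an adjusted p of 0.487.

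Hfe encodes a membrane protein that binds the transferrin receptor and is mutated in hereditary hemochromatosis (ENSMUSG00000006611.14, chr13:23702034-23710854, minus strand). Its level was 11.44, 11.51, 11.53 and 11.49 for named WT 1 to 4, against 11.32, 11.41, 11.03 and 11.45 for named Qk-KO 1 to 4. The named WT libraries were within 0.09 of each other. Named Qk-KO 4 lay among them, and named Qk-KO 3 was far below the rest. The means were 11.49 ± 0.04 and 11.30 ± 0.19 (SD, n = 4 each), a difference of -0.19 (95% interval -0.38 to 0.01). The limma adjusted p was 0.622 (unadjusted 0.0602), and the authors' deposited table gives -0.18 with an adjusted p of 0.534. Without named Qk-KO 3 the difference was -0.10.

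Ireb2, or IRP2, is the iron regulatory protein that is degraded when iron is plentiful (ENSMUSG00000032293.7, chr9:54863789-54912530, plus strand). Named WT 1 to 4 had 10.61, 10.52, 10.95 and 10.83, and named Qk-KO 1 to 4 had 11.27, 10.51, 11.18 and 10.598. Named Qk-KO 1 and 3 were the highest of the 8, and named Qk-KO 2 was the lowest. The difference was 0.16 (95% interval -0.26 to 0.59), with a limma adjusted p of 0.830. Leaving out single libraries moved it to 0.035 (named Qk-KO 1), 0.065 (named Qk-KO 3), 0.093 (named WT 2), 0.26 (named Qk-KO 4) and 0.29 (named Qk-KO 2).

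**Figure D3:**
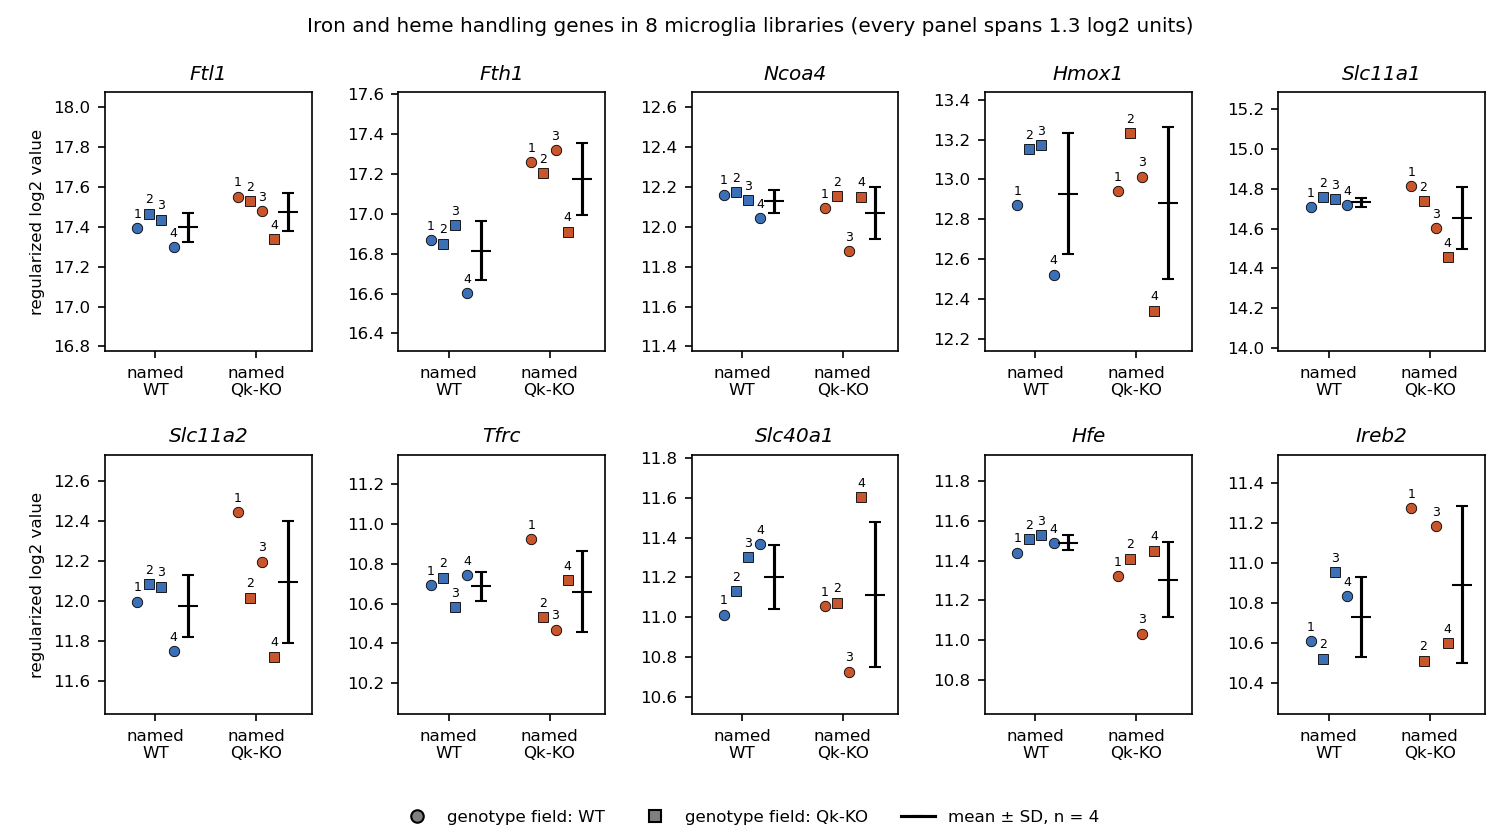
Regularized log2 value (vertical axis; every panel spans 1.3 units) of the 10 genes in each library, by sample name; digits are library numbers, the marker shape gives the genotype field, and bars are mean ± SD (n = 4). Fth1 is highest in named Qk-KO 1 to 3 (17.20 to 17.32), Hmox1 is lowest in both libraries numbered 4 (12.52 and 12.34), and no panel has groups that do not overlap.

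With the libraries grouped by the genotype field instead, the 10 genes again did not pass. By limma, 0 of 10 were called at an adjusted p under 0.05, against 0% of 22546 genes, and 0 of 10 had an unadjusted p under 0.05, against 2.67%. The groups of the genotype field did not separate for any of the 10, against 1.85% of all genes. Ireb2 had the largest difference, -0.33 (95% interval -0.69 to 0.03, limma adjusted p = 0.9995, unadjusted 0.0672), opposite in sign to that by name. The next were Slc40a1 at 0.24 (95% interval -0.10 to 0.58) and Hfe at 0.15 (95% interval -0.06 to 0.37), both also opposite in sign. Fth1 was at -0.03 (95% interval -0.39 to 0.32). The interval of a difference near 0 still allows the differences it spans, so these values do not show that the groups were alike.

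**Figure D4:**
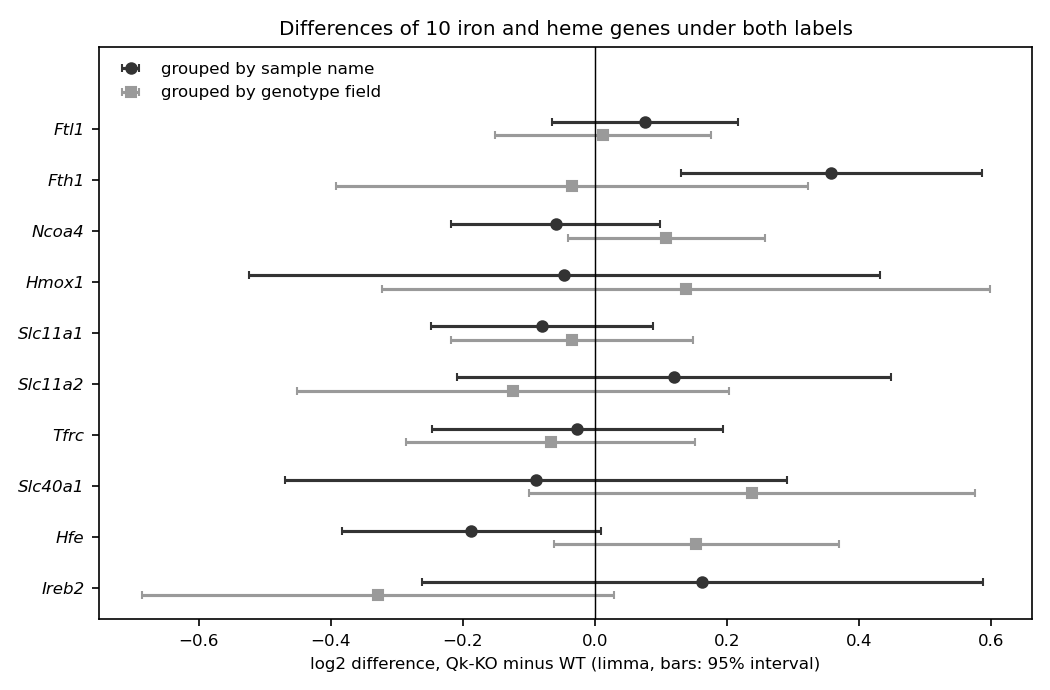
Log2 difference, Qk-KO minus WT (horizontal axis), of each of the 10 genes by limma, with the libraries grouped by sample name (black circles) or by genotype field (grey squares); bars are 95% intervals. The Fth1 interval by name, 0.13 to 0.59, is the only one drawn that leaves out 0.

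Single libraries took the extreme positions for several genes at once. Named Qk-KO 1 was the highest of the 8 for 5 of the 10 genes, Ftl1, Tfrc, Slc11a1, Slc11a2 and Ireb2. Named Qk-KO 3 was the lowest for 4, Slc40a1, Tfrc, Hfe and Ncoa4, and the highest for Fth1. Named Qk-KO 4 was the lowest for 3, Hmox1, Slc11a1 and Slc11a2, and the highest for Slc40a1. Named WT 1 was at neither end for any of the 10.

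Quaking binds RNA at the letters ACTAAC or ACTAAT, and their count in the 3′ UTR is given because the study concerns quaking. On the transcript strand, Slc40a1 held 3 such matches and Hfe 2, and the other 8 genes held 0. Of 3′ UTRs within 0.8 to 1.25 times the same length, 35.4% of 2755 held a match for Slc40a1 and 52.3% of 2275 for Hfe. For the longest of the UTRs without a match, those of Ireb2 and Tfrc, 58.8% of 2014 and 54.4% of 2187 held one. These are matches of letters, and binding was not measured.

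Around the 10 genes, 88 further genes of iron, heme and related pathways were examined in 8 lists, and 84 of them were tested. None was called by limma or in the authors' deposited table, where 75 had an adjusted p, and the smallest was 0.103 (Acsl4, which activates polyunsaturated fatty acids for membrane lipids). Of the 84 genes, 12 had an unadjusted limma p under 0.05, or 14.3% beside 8.26% of all genes tested. The background was higher among better expressed genes: in the fit of genes of at least 1 CPM, 1392 of 13463 were under that threshold. Of the 12 pathway genes, 8 had a higher and 4 a lower named Qk-KO mean, against 848 higher and 1015 lower among all genes tested. The named groups did not overlap for 10 of the 84 genes, 8 above and 2 below, or 11.9% beside 5.73% of all genes. Neither share was compared with that of genes of like signal, and the lists were not tested as sets.

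Among 16 genes of iron uptake, reduction and trafficking, 6 differences were positive, with a median of -0.12. Transferrin, listed as Trf, was at 1744 CPM and was the gene of this list with separate groups: 16.52, 16.55, 16.54 and 16.53 for named WT 1 to 4, against 16.74, 16.70, 16.56 and 16.61 for named Qk-KO 1 to 4. Its difference was 0.12 (95% interval 0.003 to 0.24), with a limma adjusted p of 0.595. The libraries numbered 4, with the highest oligodendrocyte sums, were not the highest of their groups for Trf. The part of oligodendrocytes in the Trf values was not tested. Lcn2 and Ltf, which neutrophils carry in their granules, had the differences -0.80 and -0.53, and the metalloreductase Steap2 had -0.48. Lcn2 and Ltf were highest in named WT 2, at 10.35 and 11.79, the library with the highest neutrophil sum, to which Ltf itself contributes, and the 95% intervals of these 3 differences held 0. Of 6 genes of iron export and systemic regulation, 3 were tested. Ceruloplasmin (Cp), a ferroxidase that works beside ferroportin, differed by 0.19 (95% interval -0.19 to 0.58). Bmp6, a signal for hepcidin, was at only 0.772 CPM, with values of 5.57 to 5.91 for named WT and 4.43 to 5.49 for named Qk-KO libraries, a difference of -0.72 with a limma adjusted p of 0.477. Hamp, Hfe2 and Tmprss6 did not pass the filter on low values.

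As with Ireb2, none of the further genes listed under intracellular iron sensing was called. Of 5 tested, Fbxl5, the ligase subunit that degrades iron regulatory proteins, had separate groups: 11.60, 11.69, 11.70 and 11.58 for named WT 1 to 4, against 11.73, 11.75, 11.75 and 11.74 for named Qk-KO 1 to 4. Its difference was 0.10 (95% interval -0.01 to 0.21, limma adjusted p = 0.632). Nubp1, Herc2 and Aco1, which encodes the iron regulatory protein IRP1, differed by -0.10, -0.10 and -0.04. Ftmt, mitochondrial ferritin, had no reads.

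In heme synthesis, 4 of 11 differences were positive, with a median of -0.01 that turned to 0.06 when library medians were centred. Alas2, the first enzyme of heme synthesis in red cell precursors and also one of the erythroid markers, differed by -0.65 (95% interval -1.13 to -0.18, limma adjusted p = 0.479). All 7 erythroid markers had negative differences, as did all 8 markers of each of the oligodendrocyte, astrocyte and neutrophil lists. Tspo, a mitochondrial membrane protein used as a marker of microglial activation, was 11.39, 11.39, 11.28 and 11.38 for named WT 1 to 4, against 11.49, 11.54, 11.52 and 11.44 for named Qk-KO 1 to 4, without overlap. Its difference was 0.14 (95% interval 0.02 to 0.25, limma adjusted p = 0.527), and Alas1 differed by -0.07. Among 13 genes of heme uptake, transport and breakdown, 6 differences were positive. Slc46a1, which carries folate and heme, was 10.91, 10.88, 10.94 and 11.21 for named WT 1 to 4, against 10.75, 10.81, 10.61 and 10.68 for named Qk-KO 1 to 4. The groups did not overlap, and the difference was -0.27 (95% interval -0.46 to -0.09, limma adjusted p = 0.444). The exporter Abcg2 and the hemoglobin scavenger receptor Cd163, also a marker of border-associated macrophages, differed by -0.24 and -0.35, with limma adjusted p of 0.489 and 0.766. Hmox2, the constitutive heme oxygenase, differed by -0.08, and the biliverdin reductases Blvra and Blvrb by 0.04 and 0.13.

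Of 13 genes of the NRF2 and BACH1 axis, which sets the transcription of Hmox1, both ferritin genes and Slc40a1, 8 differences were positive, with a median of 0.10. The partner factor Mafg had the largest, 0.39 (95% interval 0.11 to 0.66, limma adjusted p = 0.471), with 11.52, 11.45, 11.59 and 11.20 for named WT 1 to 4, against 11.85, 11.49, 11.97 and 11.99 for named Qk-KO 1 to 4. Named Qk-KO 2 lay within the named WT range. Txnrd1 and Mafk followed at 0.25 and 0.24. Nfe2l2, which encodes NRF2, and the repressor gene Bach1 differed by 0.23 and 0.17, with limma adjusted p of 0.695 and 0.852. Both were highest in named Qk-KO 1 and 3, at 14.51 and 14.30 for Nfe2l2 and 13.82 and 13.60 for Bach1, the libraries that were also highest for Ireb2.

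Of 13 genes of iron-sulfur cluster assembly, 10 differences were positive, with a median of 0.11 beside -0.004 for all genes. Iscu, the scaffold on which clusters are built, was 11.10, 11.05, 11.13 and 11.002 for named WT 1 to 4, against 11.33, 11.19, 11.20 and 11.32 for named Qk-KO 1 to 4. Its difference was 0.19 (95% interval 0.06 to 0.32, limma adjusted p = 0.444). Iscu and the cochaperone Hscb had groups that did not overlap. Isca2 and the electron donor Fdx1 differed by -0.20 and 0.15. Of 10 genes of ferroptosis and lipid peroxide defence, 7 differences were positive, with a median of 0.04. Acsl4 was 12.63, 12.53, 12.59 and 12.40 for named WT 1 to 4, against 12.87, 12.68, 12.83 and 12.71 for named Qk-KO 1 to 4, a difference of 0.24 (95% interval 0.09 to 0.39, limma adjusted p = 0.443). Gpx4, which reduces lipid peroxides, also had separate groups, with a difference of 0.09 (95% interval -0.01 to 0.20). Gch1, Alox15 and Alox5 differed by 0.29, -0.28 and 0.24.

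**Figure D5:**
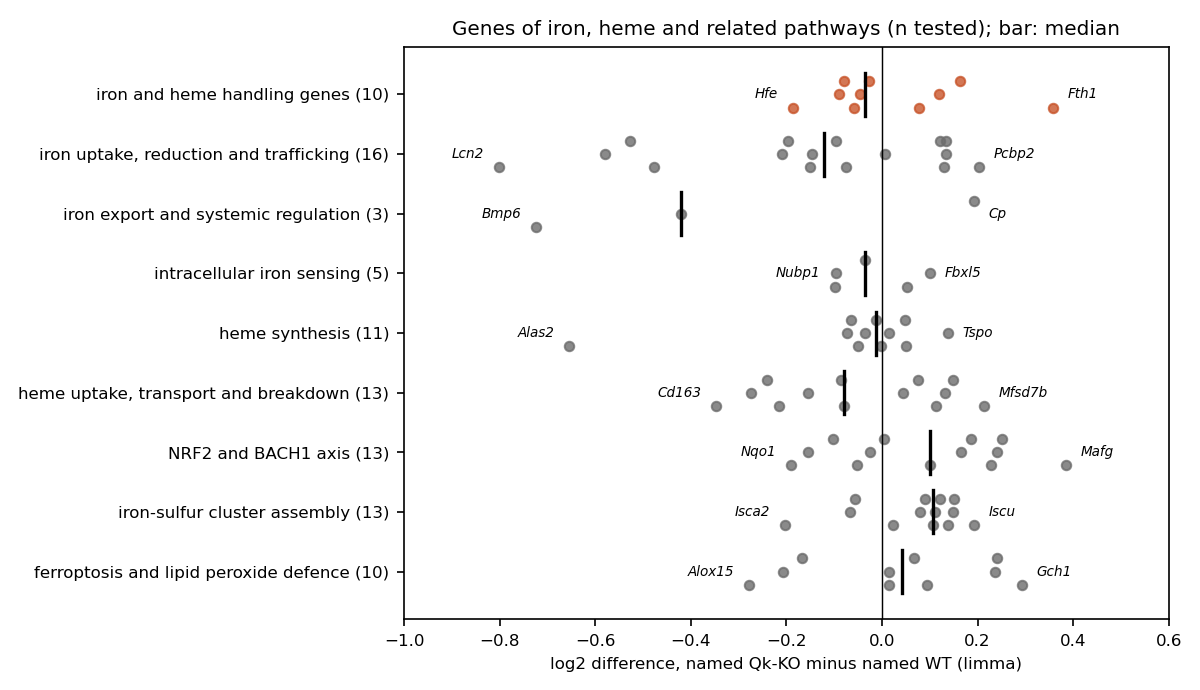
Log2 difference, named Qk-KO minus named WT by limma (horizontal axis), of the 10 iron and heme handling genes (orange) and of the tested genes of 8 pathway lists (grey); black bars are list medians and the lowest and highest gene of each row are named. Fth1 at 0.36 stands at the upper end of the 10, and list medians run from -0.42 over 3 genes of iron export to 0.11 over 13 genes of iron-sulfur cluster assembly.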

How the data were processed

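Total RNA of microglia was sequenced in 8 libraries, 4 against 4 by sample name. Named per the submitters' processing notes, without versions or roles, are HISAT2, StringTie, FastQC and DESeq2 and the build mm10. No source used here names the annotation. Each library column deposited by the authors holds log2 values. They look regularized, since genes with few reads are pulled towards their mean, and 19497 genes without reads are listed at 0. The column baseMean, per the file headers, is a mean normalized signal, and dividing it by 56.8 gave a CPM-like level. The authors' deposited comparison gives, per gene, a log2 fold change, its SE, a test score, a p-value and its adjusted form.

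The planned count test was not run, because the table used here holds no counts, and the planned fallback was used: limma 3.58.1 (R 4.3.3) with trend and robust empirical Bayes, without a pseudocount, on 22546 of 27486 genes with reads, those at or above a log2 value of 0 in 4 or more libraries. Calls used Benjamini-Hochberg adjusted p under 0.05 over all genes tested. The fit was tested on simulated data. Ratios of 2 genes used two-sided exact permutation tests. Depth was estimated from genes detected in 1 library alone, for which the signal gave whole reads within 1% in 100% of cases. The 8 libraries were distinct: the closest pair differed gene by gene with an SD of 0.367 on the log2 scale.

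Sequences and coordinates came from GENCODE M21 on GRCm38, the assembly also called mm10, and identifiers of all 10 genes matched. Copies were found with BLAST+ 2.17.0. Tf, Hjv, Flvcr1 and Flvcr2 are listed as Trf, Hfe2, Mfsd7b and Mfsd7c. The 10 genes and all lists were chosen with earlier results of these data known. From each list the text names every gene called, or else the 3 with the largest difference among those of at least 1 CPM, and genes beyond that rule were chosen after their values were seen. A few genes of the lists are not reported here by name. Alternatives varied the replicate block, genotype field, low-value filter, scaling, empirical Bayes settings and libraries, and leaving out both libraries numbered 4 was added after seeing the data.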

Additional observations from a re-analysis of the deposited data

How the results depend on the processing

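None of the 10 genes passed under any of 15 alternatives by name: 140 of 150 recomputed differences kept their direction, 10 reversed, and the smallest limma adjusted p was 0.0741 (Fth1 without named Qk-KO 4). Fth1 stayed between 0.29 and 0.45. Centring library medians reversed Hmox1 (0.030), Tfrc (0.050) and Ncoa4 (0.018). With each library left out in turn, differences ran from -0.18 to 0.13 for Hmox1, -0.25 to 0.040 for Slc40a1, -0.11 to 0.038 for Tfrc and -0.087 to 0.0049 for Ncoa4. Each of these libraries alone reversed a sign when left out: for Hmox1, named Qk-KO 4 or either of named WT 2 and 3; for Tfrc, named Qk-KO 2 or 3; for Slc40a1 and Ncoa4, named Qk-KO 3.

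The number of genes called by name was 1 in the fit reported, 0 with only genes of at least 1 CPM, 4 without both libraries numbered 4, 0 to 7 with single libraries left out, and 173 in the authors' deposited table, where relaxing the threshold to 0.1 added 1 of the 10 genes (Fth1). The cause of these shifts was not tested.

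For the Ftl1 to Fth1 ratio the difference was 0.046 by genotype field, -0.29 without both libraries numbered 4 (exact permutation p = 0.1, the smallest possible), and -0.32 to -0.23 with single libraries left out. The Tfrc to Fth1 ratio had exact permutation p of 0.0571 to 0.886 over its alternatives.

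Libraries of the same number share only a number in the labels. The correlations of their deviations from the group means, over 13463 genes, were 0.0462, 0.149, 0.274 and 0.458 for numbers 1 to 4. That of number 1 was under 0.1, so the numbers were not taken to pair the libraries. As a hint from the data, named WT 1, 3 and 4 correlated best with the named Qk-KO library of their own number, and named WT 2 with named Qk-KO 3 (0.167 against 0.149). With the replicate block, 1 gene and 0 of the 10 were called, genes at an unadjusted p under 0.05 went from 1863 to 2924, the Fth1 adjusted p was 0.121, and the Ftl1 to Fth1 ratio difference of -0.28 had an exact sign-permutation p of 0.125, the smallest that 4 pairs allow.

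Counting error of the 10 genes is at most 0.0441 on the log2 scale. Whether the difference in depth between the named groups plays a part in the results was not tested. The number of libraries limits the intervals, and regularization shrinks differences of scarce genes such as Bmp6.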

Other observations

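Gm15590 and Ftl1-ps1, copies of Ftl1, had values that varied far more between libraries than Ftl1 itself, whose span was 0.25 on the log2 scale. Gm15590, on chromosome 17 and 99.1% identical over the coding sequence, was at 7.50, 11.40, 11.29 and 11.12 in named WT 1 to 4 and at 6.81, 11.46, 11.34 and 6.61 in named Qk-KO 1 to 4. It was therefore low in named Qk-KO 1 and 4 and in named WT 1, 3 libraries, and high in the other 5. Ftl1-ps1, on chromosome 13, 99.6% identical and listed as Gm10116, was at 13.04, 13.12, 9.69 and 12.84 in named WT 1 to 4 and at 13.17, 13.11, 13.12 and 12.92 in named Qk-KO 1 to 4, low in named WT 3 alone. Ftl2-ps, 98.7% identical, stayed between 11.48 and 11.78. The libraries low for one copy were not those low for the other, and neither split follows the sample names or the genotype field. These genes were chosen after their values were seen.

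Among the lists of cell type markers, Ms4a7, a marker of border-associated macrophages, was the one gene called higher by the authors (deposited table, log2 difference 0.82, adjusted p = 2.72e-08), beside 3 microglia markers called lower, Sall1 (-0.39), Csf1r (-0.28) and Cx3cr1 (-0.70). Of the 8 genes of the border-associated macrophage list, 6 were lower on average in the named Qk-KO libraries, with a median limma difference of -0.12. In the other lists no gene was called, and the limma differences named here had 95% intervals that held 0 except that of Hba-a1. Among oligodendrocyte markers, Mobp had -0.71 and Cldn11 -0.51, and the leading astrocyte markers were Gfap (-1.13), Aqp4 (-1.12) and Slc1a2 (-1.02). The authors' deposited differences for these genes were smaller: -0.02 (Mobp), -0.26 (Cldn11), -0.62 (Gfap), -0.49 (Aqp4) and -0.41 (Slc1a2). The leading endothelial markers were Cldn5 (-0.73), Itm2a (-0.71) and Tek (-0.70), and the leading erythroid markers Hba-a2 (-0.67), Hba-a1 (-0.67) and Hbb-bs (-0.67). Among monocyte markers, Vcan had -0.27 and Plac8 -0.22, and the leading neutrophil markers were Camp (-0.70), Ngp (-0.56) and Ltf (-0.53). The deposited differences for these neutrophil markers were larger: -1.03 (Camp), -0.93 (Ngp) and -0.89 (Ltf). For choroid plexus and ependyma the leading markers were Ttr (-0.76), Kl (-0.65) and Foxj1 (-0.64), and for neurons Nefl (-0.54) and Snap25 (-0.41).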
